A study of Homo sapiens with 6 samples.

Results

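The unfolded protein response genes of the endoplasmic reticulum (ER) HSPA5, HSP90B1, CALR, SDF2L1, DNAJB9, PDIA4, CRELD2, HERPUD1, EDEM1 and XBP1 were examined in HEK-293 cells, an established human embryonic kidney cell line. These 10 genes were chosen by name, with earlier results of these data known. Every probe that the array annotation assigns to one of them was taken. Of the 10 genes, 9 had at least 1 probe, out of 12134 genes tested on the array. HERPUD1 had no probe under its symbol in the annotation used and was not analysed here. The circANRIL group held 3 arrays of cells with stable overexpression of circANRIL, a circular RNA made from exons of the long non-coding RNA ANRIL. The vector control group held 3 arrays of cells that carried the pBI-CMV2 vector without it. Per the study's methods, both groups share the HEK-293 background (ACC305), a bicistronic vector that also makes a green fluorescent protein, and co-transfection with a neomycin-encoding vector, so the controls carry these as well. RNA was hybridised to Illumina HumanHT-12 v4 BeadChips, which report a probe's brightness. The study's methods describe the arrays of both groups as separate stable cell lines, several of which were made per construct, while the labels number the arrays without tying each to a line. Taken so, a p-value here reflects how these lines vary on 1 array each.

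Proteins that enter the ER are folded by chaperones and disulfide isomerases, and those that fail are sent to the cytosol for degradation. When unfolded proteins gather in the ER, the sensors IRE1, ATF6 and PERK start the unfolded protein response. IRE1 splices the XBP1 mRNA so that it encodes an active transcription factor, ATF6 is cut in the Golgi to release one, and PERK phosphorylates eIF2alpha, which lowers general translation and raises ATF4 and CHOP. XBP1 and ATF6 raise the genes of chaperones, disulfide isomerases and degradation factors. They act in part through the ER stress response element (ERSE), whose CCAAT end is bound by NF-Y and whose CCACG end is bound by ATF6 or XBP1. BiP, the product of HSPA5, is the most used marker of the response.

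All 10 probes of the 9 genes were detected on all 6 arrays. At an adjusted p under 0.05, DNAJB9 and XBP1 were higher in the circANRIL cells, no gene was lower and 7 genes did not pass. DNAJB9 was 2.22-fold (95% interval 1.62 to 3.05) and XBP1 1.68-fold (1.35 to 2.08) of the vector control level, and HSPA5, at 1.5-fold (1.12 to 2), lay just outside the threshold with an adjusted p of 0.0504 from limma. Over all genes tested, 11.4% were called higher and 9.26% lower, so 2 of 9 called higher and 0 of 9 called lower are to be read beside those shares. The median log2 fold change was 0.17 over the 9 genes and -0.02 over all genes.

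A short description of the arrays bears on all values. On each array 43.4% to 46.8% of the 47315 probes were detected, and normalized values correlated at 0.98 to 0.99 between arrays of a group and at 0.946 to 0.968 between groups. Of the 21191 probes kept, 1965 were higher and 1788 lower in the circANRIL cells. The higher ones made up 52.4% of the calls, and 32.3% with median scaling over all probes in place of quantile normalization. With median scaling over the detected probes only, chosen after seeing the data, they made up 52.3%. Of 8 markers expected in HEK-293, 5 were detected on all arrays and PAX2 on none. Of 16 markers of other cell types, CD68, ALB, COL1A1 and ACTA2 were detected on all arrays and 10 on none. Of 4 markers of ER-rich secretory cells, IRF4 was detected on all arrays, and JCHAIN and BHLHA15 on none. Several markers differed between the groups. The neurofilament gene NEFM had a mean log2 signal of 7.11 in the circANRIL cells and 12.47 in the vector control cells, a log2 fold change of -5.36 (SE 0.30, adjusted p = 2.99e-09 from limma). INA, another neuronal filament gene, was detected on 3 circANRIL arrays (mean 8.79) but on only 1 vector control array (mean 5.04), so the size of its difference is not given. The neurofilament gene NEFL (1.08, adjusted p = 0.00068) and the keratin gene KRT8 (2.30, adjusted p = 6.34e-05) were higher in the circANRIL cells, as were CD68 (0.56, adjusted p = 0.0365) and ACTA2 (0.73, adjusted p = 0.00493), and COL1A1 was lower (-0.52, adjusted p = 0.048). VIM (0.14, adjusted p = 0.405), SALL1 (-0.02, adjusted p = 0.964) and IRF4 (-0.28, adjusted p = 0.265) did not pass. The means of COL1A1 (4.87 in the circANRIL and 5.38 in the vector control cells) lay near the detection floor. So did those of ALB (5.10 and 5.22), SALL1 (5.08 and 5.10) and IRF4 (4.93 and 5.20). The lowest detected values on the arrays ran from 4.60 to 4.69. The part of the marker differences in the results below was not tested. Overexpression of circANRIL itself was not checked, since probe positions relative to its exons are not in the files used here. In bulk RNA, fewer cells that express a gene and less RNA per cell cannot be told apart.

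The promoters of the genes are shown first, since most of these genes are known targets of XBP1 or ATF6 through the ERSE. Promoter windows of 300 bases, from 250 before to 50 after the annotated start, came from RefSeq (GRCh38.p14), and all 10 genes were matched by symbol. XBP1 and PDIA4 have several annotated starts, of which the most upstream was used. The ERSE was searched as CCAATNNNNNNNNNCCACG on both strands. It was found in the windows of HSPA5, HSP90B1, CALR, CRELD2 and XBP1, which is 5 of 10, and in 27 of 35116 windows overall (0.0769%). The related element ERSE-II, searched as ATTGGNCCACG on both strands, was found in SDF2L1 and HERPUD1 and in 0.0541% of all windows. The 250 bases before the start are printed for HSPA5 and XBP1, which hold an exact ERSE match and lay highest among its holders. They are also printed for HSP90B1, which holds a pair of exact matches and stayed near the control level. DNAJB9 is printed as well, since it had the largest fold change and holds no exact match of either element in this window. Capitals mark exact matches of the ERSE, on either strand. Copies that differ from the searched letters were not counted or marked. The stretches are chr9:125241344-125241593 on the minus strand, chr22:28800570-28800819 on the minus strand, chr12:103930160-103930409 on the plus strand and chr7:108569624-108569873 on the plus strand, each written 5′ to 3′ along its gene.
HSPA5: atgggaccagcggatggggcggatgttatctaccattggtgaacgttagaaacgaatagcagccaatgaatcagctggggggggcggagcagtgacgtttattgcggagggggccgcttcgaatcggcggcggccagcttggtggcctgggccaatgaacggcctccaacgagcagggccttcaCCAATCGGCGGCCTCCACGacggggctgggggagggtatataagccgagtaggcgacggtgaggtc
XBP1: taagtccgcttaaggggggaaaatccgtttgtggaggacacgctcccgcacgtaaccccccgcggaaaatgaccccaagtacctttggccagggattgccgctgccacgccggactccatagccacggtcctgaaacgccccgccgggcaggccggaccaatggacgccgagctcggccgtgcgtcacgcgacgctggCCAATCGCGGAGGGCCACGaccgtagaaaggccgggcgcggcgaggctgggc
HSP90B1: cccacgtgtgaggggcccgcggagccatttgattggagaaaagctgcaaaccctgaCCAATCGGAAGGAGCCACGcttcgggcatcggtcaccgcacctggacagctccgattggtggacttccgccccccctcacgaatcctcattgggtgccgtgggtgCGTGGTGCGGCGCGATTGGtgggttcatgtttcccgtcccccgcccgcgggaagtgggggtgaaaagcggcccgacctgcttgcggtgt
DNAJB9: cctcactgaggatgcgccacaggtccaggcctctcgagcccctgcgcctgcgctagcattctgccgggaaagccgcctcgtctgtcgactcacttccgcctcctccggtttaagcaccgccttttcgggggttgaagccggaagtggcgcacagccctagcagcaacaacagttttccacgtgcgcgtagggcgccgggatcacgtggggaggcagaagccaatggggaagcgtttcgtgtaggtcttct

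The exact ERSE match of HSPA5 ran from 66 to 48 bases before the start. That of XBP1 ran from 52 to 34 bases before it, and both had the orientation of the gene. HSPA5 also holds a CCAAT that begins 99 bases before the start and is followed after 9 letters by CCAAC, which was not counted. HSP90B1 had its first match from 194 to 176 bases before the start and its second, on the opposite strand, from 89 to 71. The match lay on the opposite strand in CALR and in CRELD2 as well, at 225 to 207 and at 80 to 62 bases before the start. ERSE-II lay 188 to 178 bases before the start of SDF2L1, on the opposite strand, and 117 to 107 bases before that of HERPUD1. Each full element contains 1 CCACG and 1 CCAAT, so the short motifs overlap it. CCACG and CCAAT were each found in all 10 windows, but also in 38.1% and 34.6% of all windows. TGACGTGG, a longer core bound by XBP1, was found in none of the 10 windows and in 0.729% of all windows. TGATGNAA, the core of the element bound by ATF4 with its partners, was found in HERPUD1 and in 3.62% of all windows. A match is a description of the letters and not a bound site.

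**Figure D1:**
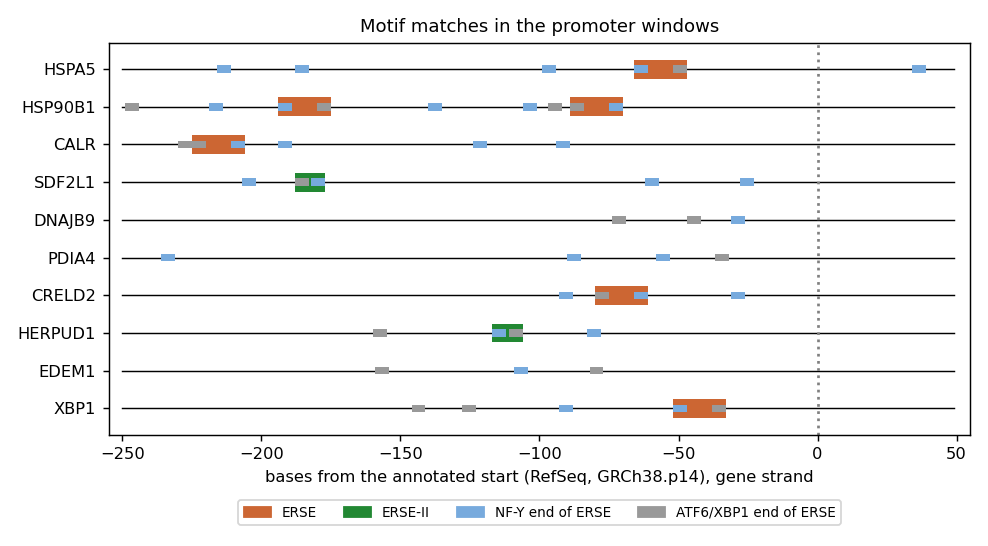
Motif matches in the promoter window of each of the 10 genes. The horizontal axis gives bases from the annotated start along the gene. Thick boxes are exact matches of the ERSE or ERSE-II. Thin boxes are single matches of the NF-Y end (CCAAT) and of the ATF6 or XBP1 end (CCACG) on either strand. DNAJB9, PDIA4 and EDEM1 have no thick box.

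The chaperones come first. HSPA5 encodes BiP, the Hsp70 chaperone of the ER lumen, which also holds the stress sensors inactive. Its normalized log2 signal was 7.49, 7.26 and 7.88 on vector control arrays 1, 2 and 3 and 7.93, 8.31 and 8.14 on circANRIL arrays 1, 2 and 3. All circANRIL arrays lay above all vector control arrays, but the groups were only 0.052 apart, between vector control array 3 and circANRIL array 1. The means were 8.12 ± 0.19 and 7.54 ± 0.31 (SD, n = 3 each), a log2 fold change of 0.58 (SE 0.20, 95% interval 0.17 to 1.00). Its p from limma was 0.00897 before and 0.0504 after Benjamini-Hochberg adjustment, and 10.7% of genes (1302) had a larger log2 fold change. The call turned on the setting. Without vector control array 3 the log2 fold change was 0.74 with an adjusted p of 0.0181, with the authors' normalized values it was 0.43 with 0.0496, and over all settings the adjusted p ran from 0.0181 to 0.2.

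HSP90B1 encodes GRP94, the Hsp90 chaperone of the ER. Its log2 signal was 11.77, 11.61 and 11.86 on the vector control arrays and 11.69, 11.77 and 11.55 on the circANRIL arrays. The groups overlapped, with the highest array a vector control and the lowest a circANRIL array. The log2 fold change was -0.07 (95% interval -0.33 to 0.18, adjusted p = 0.717 from limma), so the interval reaches from 0.797-fold to 1.13-fold. That is the narrowest bound among the 9 genes on a change in either direction. CALR encodes calreticulin, a lectin chaperone that binds calcium and glycoproteins. The log2 signal of CALR was 8.14, 8.38 and 8.66 on the vector control arrays and 8.48, 8.29 and 7.79 on the circANRIL arrays. The spread within each group was wider than the difference of -0.20 (SE 0.20, adjusted p = 0.531 from limma), and circANRIL array 1 lay above vector control arrays 1 and 2.

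SDF2L1 and DNAJB9 encode co-chaperones of BiP. SDF2L1 works with the ER J-proteins and keeps misfolded proteins soluble. Signals of SDF2L1 on the log2 scale were 9.97, 9.74 and 9.76 on the vector control arrays and 9.97, 10.28 and 9.74 on the circANRIL arrays. Only circANRIL array 2 stood above the rest, and the groups overlapped (log2 fold change 0.17, SE 0.16, adjusted p = 0.496 from limma). DNAJB9 encodes ERdj4, a J-protein that stimulates BiP's ATPase, brings BiP to the sensor IRE1 and takes part in ER-associated degradation. The log2 signal of DNAJB9 was 7.61, 8.52 and 7.85 on the vector control arrays and 8.87, 9.37 and 9.19 on the circANRIL arrays. Every circANRIL array lay above every vector control array, and the groups were 0.35 apart, with vector control array 2 the nearest. The means were 9.14 ± 0.26 and 7.99 ± 0.47 (SD, n = 3 each), a log2 fold change of 1.15 (SE 0.22, 95% interval 0.69 to 1.61, adjusted p = 0.00169 from limma). Only 3.31% of genes (402) had a larger log2 fold change. The call was kept when any 1 array was left out, with adjusted p up to 0.0199, but lost with a floored background (log2 fold change 1.20, adjusted p = 0.0784) and with a plain test per probe that pools no spread across probes (adjusted p = 0.133).

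Before normalization the same order was visible in DNAJB9. Its deposited signal was 176, 368 and 252 on the vector control arrays and 444, 553 and 536 on the circANRIL arrays. The deposited signal of HSPA5 was 159, 143 and 257 on the vector control arrays and 228, 259 and 250 on the circANRIL arrays. There vector control array 3 stood among the circANRIL arrays, so for HSPA5 the groups overlapped in the deposited signals and did not after normalization. The means of all deposited signals ran from 192 to 225 on 5 arrays and were 176 on circANRIL array 2.

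The disulfide isomerases did not pass the test. PDIA4 encodes ERp72, which forms and rearranges disulfide bonds in the ER. Its log2 signal was 6.41, 6.78 and 6.98 on the vector control arrays and 6.65, 6.21 and 6.23 on the circANRIL arrays. It had the lowest log2 fold change of the 9 genes, -0.36 (SE 0.22, 95% interval -0.81 to 0.10, adjusted p = 0.274 from limma), and circANRIL array 1 lay above vector control array 1. CRELD2 encodes an ER protein with thiol isomerase activity that is secreted under stress. CRELD2 gave log2 signals of 8.98, 8.88 and 8.76 on the vector control arrays and 9.08, 9.16 and 8.71 on the circANRIL arrays. Arrays 1 and 2 of circANRIL were the highest and array 3 the lowest of all 6, so the groups overlapped (log2 fold change 0.11, SE 0.17, adjusted p = 0.711 from limma).

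EDEM1 takes misfolded glycoproteins from the folding cycle into ER-associated degradation. On the log2 scale EDEM1 gave 7.27, 7.44 and 7.35 on the vector control arrays and 7.73, 7.68 and 7.45 on the circANRIL arrays. The groups did not overlap, but circANRIL array 3 lay only 0.0023 above vector control array 2. In the deposited signals, 135, 166 and 170 on the vector control arrays and 198, 165 and 150 on the circANRIL arrays, they did overlap. The log2 fold change was 0.26 (SE 0.18, 95% interval -0.12 to 0.65) and did not pass, with an adjusted p of 0.339 from limma.

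XBP1 is the transcription factor among the 9 genes and had 2 probes. On the probe with the higher mean, which stands for the gene, its log2 signal was 10.04, 10.24 and 9.92 on the vector control arrays and 10.57, 10.90 and 10.96 on the circANRIL arrays. The groups were 0.33 apart, and vector control array 2 was the highest control, as it was for DNAJB9. The means were 10.81 ± 0.21 and 10.07 ± 0.16 (SD, n = 3 each), a log2 fold change of 0.74 (SE 0.15, 95% interval 0.43 to 1.05, adjusted p = 0.00231 from limma), and 7.37% of genes (894) had a larger one. On the other probe the log2 signal was 10.14, 10.37 and 9.74 on the vector control arrays and 10.51, 10.74 and 10.90 on the circANRIL arrays. The groups were 0.14 apart there. The log2 fold change was 0.63 (SE 0.17, 95% interval 0.28 to 0.98, adjusted p = 0.0146 from limma). The call of the first probe was kept when any 1 array was left out, and that of the other was lost without vector control array 3, circANRIL array 2 or circANRIL array 3 (adjusted p = 0.0616, 0.0641 and 0.0823). In a plain test per probe neither passed (adjusted p = 0.0946 and 0.184), and the other probe also lost its call with median scaling (0.45, adjusted p = 0.055) and with a floored background (0.64, adjusted p = 0.124). Whether either probe tells the spliced from the unspliced mRNA was not tested, since probe positions are not in the files used here.

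**Figure D2:**
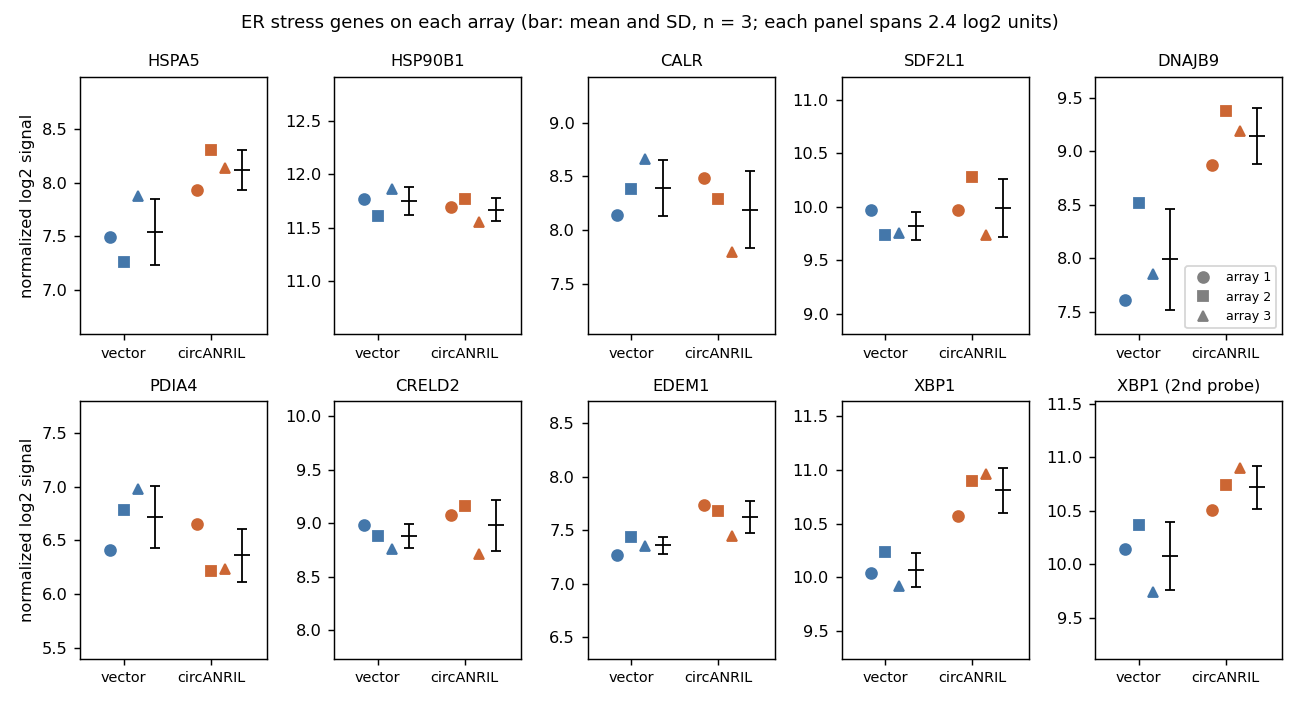
Normalized log2 signal of each probe on each array. Blue points are the 3 vector control arrays, orange points the 3 circANRIL arrays, marker shape gives the array number within the group and bars give the mean and SD. DNAJB9 and both XBP1 probes have all orange points above all blue points, while HSP90B1, CALR, SDF2L1, PDIA4 and CRELD2 overlap. Panels span the same height but start at different levels, since levels of different probes cannot be compared.

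Of the 9 genes, 4 had groups that did not overlap with circANRIL higher (HSPA5, DNAJB9, EDEM1 and XBP1), none had them lower and 5 overlapped. In the deposited signals HSPA5 and EDEM1 overlapped as well, and DNAJB9 and both XBP1 probes did not. Over all genes tested, 19.2% did not overlap with circANRIL higher and 20% with it lower. The log2 fold change was above 0 in 6 of the 9 genes and below it in 3. With 3 arrays against 3, an exact permutation test of a single gene cannot go below p = 0.1 (two-sided), and HSPA5, DNAJB9, EDEM1 and both XBP1 probes stood at that value. The circANRIL arrays did not keep 1 order across these genes. Array 2 was the highest for HSPA5 and DNAJB9, array 3 for XBP1 and array 1 for EDEM1, and the lowest was array 1 for HSPA5, DNAJB9 and XBP1 and array 3 for EDEM1. Array 2 of the vector controls was the highest control for DNAJB9, XBP1 and EDEM1 and the lowest for HSPA5.

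**Figure D3:**
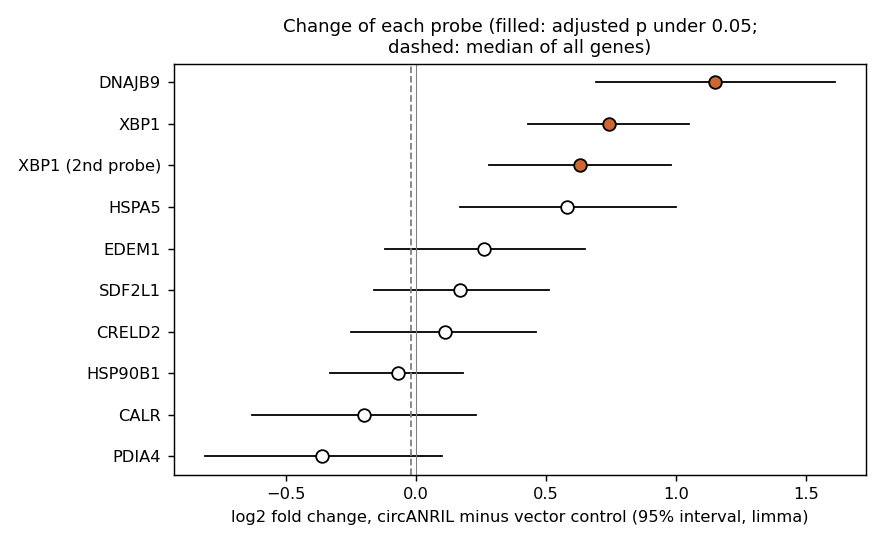
Log2 fold change of each probe, circANRIL minus vector control, with the 95% interval from limma. Filled points passed an adjusted p of 0.05, and the dashed line is the median of all genes at -0.02. DNAJB9 at 1.15 and the XBP1 probes at 0.74 and 0.63 are filled, and HSPA5 at 0.58 is the next below them.

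The fold changes are listed here by the exact matches in the windows. Among the 5 genes with an ERSE match the log2 fold change was 0.74 for XBP1, 0.58 for HSPA5, 0.11 for CRELD2, -0.07 for HSP90B1 and -0.20 for CALR. SDF2L1, with a match of ERSE-II, stood at 0.17. Among the 3 measured genes with neither element it was 1.15 for DNAJB9, 0.26 for EDEM1 and -0.36 for PDIA4, so the highest and the lowest of the 9 values both fell there. These are descriptions of 9 genes and of exact matches in 1 window each. A part of the ERSE in the changes was not tested.

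The other genes of the pathway were counted in lists by function. Beside the 9 genes, 186 list genes were measured, of which 27 were higher (14.5%, against 11.4% of all genes) and 14 lower (7.53%, against 9.26%). Of the 27, 9 came from the list of the PERK branch and CHOP genes. With median scaling over all probes the counts turned to 18 higher and 26 lower, and over the detected probes only to 24 and 16. Of the 19 measured ER chaperones and co-chaperones 2 were higher, 1 was lower and the median log2 fold change was 0.02. Without the 5 genes described above, 14 remained, with 1 higher and 1 lower. FKBP14, a prolyl isomerase, was higher (0.64, SE 0.18, adjusted p = 0.0219), and DNAJC3, a BiP co-chaperone that also inhibits PERK, was lower (-0.69, SE 0.20, adjusted p = 0.0236), both from limma. DNAJC3 lay near the detection floor, at 5.17, 4.91 and 4.90 on the circANRIL arrays, where the lowest detected values were 4.65, 4.66 and 4.69. Its log2 fold change ran from -1.03 to -0.25 over the settings in which it was tested. Of 19 disulfide isomerases and oxidases 2 were higher and 1 lower, with a median of 0.07. ERO1B, an oxidase that recharges protein disulfide isomerase, had a log2 signal of 5.60, 5.88 and 5.96 on the vector control arrays and 7.11, 7.26 and 7.32 on the circANRIL arrays. The groups lay well apart, with a log2 fold change of 1.41 (SE 0.20, adjusted p = 0.000119 from limma). A further probe of ERO1B stood at 0.88 (adjusted p = 0.00459 from limma). Only the first of these values was above that of DNAJB9, at 1.15. QSOX1, which also makes disulfide bonds, was higher (0.88, adjusted p = 0.00526), and the thioredoxin-like membrane protein TMX2 was lower (-0.66, adjusted p = 0.0142).

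In ER-associated degradation, the list that holds EDEM1, 4 of 23 genes were higher (17.4%) and 3 lower (13%), with a median of -0.01. Over all genes these shares were 11.4% and 9.26%. SELENOS (0.55, adjusted p = 0.00794) and UBXN4 (0.61, adjusted p = 0.0143), which recruit the VCP ATPase to the ER membrane, and EDEM3 (0.63, adjusted p = 0.0412), a mannosidase-like relative of EDEM1, were among the higher genes. UFD1, a cofactor of VCP, fell by 0.86 (adjusted p = 0.00687), the mannosidase MAN1B1 by 0.71 (adjusted p = 0.0156) and AUP1 by 0.52 (adjusted p = 0.0476). UFD1 lay near the detection floor on the circANRIL arrays, at 5.11, 5.35 and 4.93, and its value ran from -1.28 to -0.34 over the settings in which it was tested. A further probe of UFD1 stood at -0.95 (adjusted p = 0.00211). A further probe of EDEM3 stood at -0.06 (adjusted p = 0.81) and those of SELENOS at 0.21 and 0.37, none of them called. Among the sensors and their regulators 3 of 18 genes were higher (16.7%), XBP1 included, and 1 was lower (5.56%), with a median of 0.06. MBTPS2, the protease that makes the second cut in ATF6, was higher (0.95, adjusted p = 0.00085), although its other probe stood at 0.31 (adjusted p = 0.429). ATF6 itself was higher (0.53, adjusted p = 0.0447), and NFYC, a subunit of the NF-Y factor that binds the CCAAT end of the ERSE, was lower (-0.60, adjusted p = 0.0239). All p-values here are from limma over all kept probes.

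The list of the PERK branch and CHOP genes stood at higher values. Of its 15 genes 9 were higher (60%, against 11.4% of all genes) and 0 lower (against 9.26%), and the median log2 fold change was 0.88. The list was drawn up with earlier results of these data known, so this share is a description and not an independent result. TRIB3, a pseudokinase raised by ATF4 and CHOP, had a log2 signal of 6.58, 6.51 and 5.48 on the vector control arrays and 8.04, 8.22 and 8.51 on the circANRIL arrays. The groups lay well apart, with a log2 fold change of 2.06 (SE 0.26, adjusted p = 4.01e-05 from limma). PPP1R15A encodes GADD34, which brings a phosphatase to eIF2alpha and ends the translation block. Its log2 signal was 8.61, 9.09 and 8.81 on the vector control arrays and 9.64, 10.10 and 9.96 on the circANRIL arrays, again without overlap (1.06, SE 0.17, adjusted p = 0.000466 from limma). CTH, an enzyme of cysteine synthesis, was higher by 1.25 (SE 0.25, adjusted p = 0.00233 from limma). Named outside the rule, after their values were seen, DDIT3, which encodes CHOP, was higher (0.92, adjusted p = 0.0036) and ATF4 mRNA did not pass (0.13, adjusted p = 0.534). Several genes of the list, such as CTH and ASNS, are also raised by ATF4 when amino acids are short, without ER stress. ASNS, also named outside the rule, was higher (1.08, adjusted p = 0.00496 from limma). A part of amino acid shortage or of ER stress in these values was not tested. The count of higher genes was 6 without circANRIL array 3, between 8 and 10 without any other array, 3 with a floored background and 0 with a plain test per probe that pools no spread across probes. In that plain test the adjusted p was 0.0844 for TRIB3, 0.0837 for PPP1R15A and 0.164 for CTH.

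The lists of ER entry and export follow, beside 11.4% of all genes higher and 9.26% lower. Of 25 genes of translocation and signal peptide processing 3 were higher (12%) and 3 lower (12%), with a median of -0.05. The higher ones were SSR4 (0.67, adjusted p = 0.00466) and SSR2 (1.02, adjusted p = 0.0139), subunits of the translocon-associated protein complex, and the signal peptidase subunit SEC11A (0.42, adjusted p = 0.0304). A further probe of SSR2 stood at 0.62 (adjusted p = 0.0751). The lower ones were the signal peptide peptidase HM13 (-0.67, adjusted p = 0.0281), the signal recognition particle subunit SRP72 (-0.51, adjusted p = 0.0351) and TRAM2 (-0.64, adjusted p = 0.0356), and further probes of HM13 stood at -0.13 and -0.15 without passing. The first HM13 probe lay near the detection floor on the circANRIL arrays, at 5.56, 5.25 and 5.44. Its value ran from -0.95 to -0.29 over the settings. Of 26 N-glycosylation genes 4 were higher (15.4%) and 0 lower, with a median of -0.09. They included DPM3 (1.36, adjusted p = 0.000206), a subunit of dolichol-phosphate mannose synthase, TUSC3 (0.71, adjusted p = 0.00419), a subunit of the oligosaccharyltransferase, and GFPT1 (0.91, adjusted p = 0.00673), the first enzyme of the hexosamine pathway and a known XBP1 target. Of 25 ER to Golgi transport genes 0 were higher and 2 lower (8%), SEC16A (-0.49, adjusted p = 0.0404) and COPZ1 (-0.45, adjusted p = 0.0497). These p-values are from limma as well.

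Chaperones outside the ER were counted for comparison. Of 14 genes of the cytosolic heat shock response 2 were higher (14.3%, against 11.4% of all genes) and 2 lower (14.3%, against 9.26%), with a median of -0.06. The small heat shock proteins HSPB1 (1.02, adjusted p = 0.000927) and HSPB8 (1.41, adjusted p = 0.005) were higher. HSPB8 lay near the detection floor on vector control array 1, at 4.81, and its value ran from 0.71 to 1.77 over the settings in which it was tested. The constitutive chaperones HSPA8 (-0.93, adjusted p = 0.00233) and HSP90AB1 (-0.54, adjusted p = 0.0298) were lower. Of 11 mitochondrial chaperones and proteases 0 were higher and 1 was lower (9.09%), GRPEL1 (-0.58, adjusted p = 0.0205), again from limma.

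Not all of these calls kept their side of the threshold when 1 array was left out. Beside DNAJB9 and XBP1, the calls of CTH, DPM3, ERO1B, GFPT1, HSPA8, HSPB1, HSPB8, MBTPS2, PPP1R15A, QSOX1, SELENOS, SSR4, TRIB3, TUSC3 and UFD1 were kept in each of these fits. Of these genes only ERO1B also kept its call in every other setting. SELENOS lost its call with median scaling, and the others lost theirs with a plain test per probe. CTH, GFPT1, HSPA8, HSPB1, HSPB8, QSOX1 and SSR4 also lost theirs with a floored background, like DNAJB9. SSR2 lost its call without circANRIL array 2 (adjusted p = 0.0791) and TMX2 without circANRIL array 3 (adjusted p = 0.0756). The calls of ATF6, AUP1, COPZ1, DNAJC3, EDEM3, FKBP14, GRPEL1, HM13, HSP90AB1, MAN1B1, NFYC, SEC11A, SEC16A, SRP72, TRAM2 and UBXN4 were each lost on leaving out any of several arrays, with adjusted p up to 0.188 for AUP1.

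**Figure D4:**
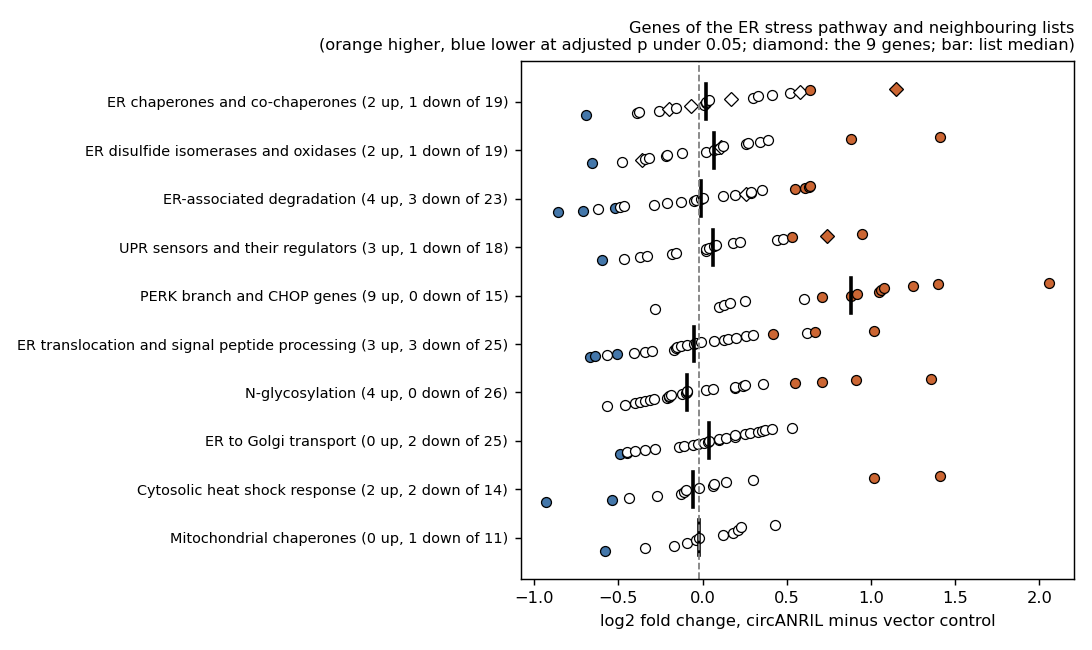
Log2 fold change, circANRIL minus vector control, of every measured gene in each list. Orange points passed as higher and blue points as lower at an adjusted p under 0.05, open points did not pass, diamonds are the 9 genes described above, black bars are list medians and the dashed line is the median of all genes. The PERK branch and CHOP list has its median at 0.88, and the medians of the other lists lie between -0.09 and 0.07.

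The values of the 9 genes were recomputed under other processing. The log2 fold change of DNAJB9 ran from 0.94 to 1.41 over the settings tried and the first XBP1 probe from 0.56 to 0.87. HSPA5 ran from 0.42 to 0.74. HSP90B1, CALR and PDIA4 were below 0 and EDEM1 above 0 in every setting, whereas SDF2L1 and CRELD2 fell to -0.02 and -0.09 with median scaling. That scaling moved the median of all genes from -0.02 to -0.14. Relative to that median, SDF2L1 stood at 0.12, CRELD2 at 0.04, DNAJB9 at 1.10, XBP1 at 0.70 and HSPA5 at 0.56.

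**Figure D5:**
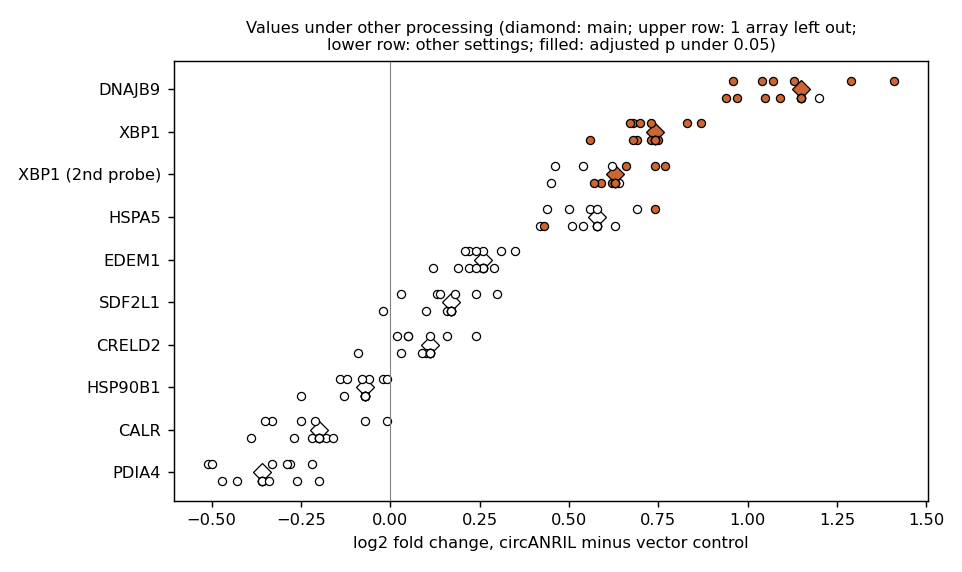
Log2 fold change of each probe under each setting. The diamond is the value reported above, the upper row of points leaves out 1 array each and the lower row changes 1 step of the processing. Filled points passed an adjusted p of 0.05. The points of DNAJB9 lie between 0.94 and 1.41, and those of SDF2L1 and CRELD2 cross 0.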

How the data were processed

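Expression was measured in HEK-293 cells on 6 Illumina HumanHT-12 v4 arrays, 3 of circANRIL-overexpressing cells and 3 of vector control cells. Bead-level data were processed by the authors with GenomeStudio (version 2011.1 per the submitters' processing notes), who deposited 1 intensity per probe and array, on the linear scale, with background subtracted, so that 11666 to 12397 of 47315 values per array were negative, and without normalization between arrays. The deposited detection p-values, from negative control beads, were used as they are. A further deposited table of the authors' quantile-normalized intensities served as an alternative. No slide or batch is named.

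Background correction by normexp, quantile normalization and log2 transformation used neqc (limma 3.58.1, R 4.3.3, offset 16). Kept were 21191 probes detected (p under 0.05) on 3 or more of the 6 arrays, 16957 of them on all. The annotation gave 1 symbol to 30110 probes, and 30071 of them matched the GRCh38.p14 gene table. Where a gene had several kept probes, the one brightest on average stands for it. Groups were compared with limma (lmFit, eBayes with an intensity trend, two-sided), with Benjamini-Hochberg adjustment over all kept probes and a threshold of 0.05. The procedure was tested on simulated data. No set test was run. The number of arrays limits the precision.

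The genes and the pathway lists were chosen with earlier results of these data known. Named were the 10 genes and, from each list, up to 3 called genes per direction with the smallest adjusted p. The alternatives were median scaling, a floored background, an offset of 50, the authors' normalized values, a stricter and no detection filter, a plain equal-variance t-test per probe, no intensity trend, a replicate block, other rules for the probe that stands for a gene, and leaving out each array. The study's methods name a t-test for comparisons in general. For its pathway analysis the study chose array transcripts by fold change, a criterion not applied here.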

Additional observations from a re-analysis of the deposited data

How the results depend on the processing

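The pair of genes called higher, DNAJB9 and XBP1, kept that call in 14 of 16 other fits. The exceptions were the floored background, where 1 gene (XBP1) was called, and the plain t-test per probe, where 0 were. In that t-test the adjusted p was 0.133 for DNAJB9 and 0.0946 for XBP1. HSPA5 passed as well without vector control replicate 3, with the authors' normalized values and with a detection p under 0.01 on all arrays (0.58, adjusted p = 0.0497). Leaving out 1 array gave 2 to 3 genes called higher and 0 called lower, the probe with the smallest adjusted p for each gene gave 2 higher, and all probes counted gave 3. With median scaling SDF2L1 (-0.02) and CRELD2 (-0.09) changed sign, neither passing the test, 2974 probes were called lower against 1788 and 26 list genes against 14, while list genes called higher went from 27 to 18. The floored background gave 824 probes higher and 705 lower, with 9 list genes higher and 2 lower. Without a detection filter 6 list genes were lower. The plain t-test per probe gave 281 probes higher and 203 lower after adjustment, with 2 list genes higher and 0 lower. The cause of these differences was not tested. Leaving out 1 array gave 1230 to 1809 probes higher and 908 to 1513 lower, and 18 to 28 list genes higher and 3 to 12 lower. The lowest probe counts came without circANRIL replicate 2 (1230 and 908) and without circANRIL replicate 3 (1256 and 936), and the lower list genes fell to 9 and 5 without vector control replicates 1 and 3 and to 5 and 3 without circANRIL replicates 2 and 3.

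Same-numbered arrays deviated from their group means with correlations of 0.0026, 0.082 and -0.13, and differently numbered arrays with -0.14 to 0.12. With 3 arrays a group, these values cannot exclude that same-numbered arrays were handled together. With the replicate number as a block 1894 probes were higher and 1637 lower, and 2 of the 9 genes (DNAJB9 and XBP1) and 27 list genes were higher and 11 list genes lower. Median scaling over the detected probes only, chosen after seeing the data, called 3754 probes, 52.3% of them higher, and the same pair of genes. That fit called 24 list genes higher and 16 lower.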
